A study of Mus musculus with 6 samples.

Results

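The genes described here are 9 mouse noncoding genes of the nucleus: the small nucleolar RNA (snoRNA) hosts Gas5, Snhg1, Snhg3, Snhg6, Snhg8 and Snhg12, and the long noncoding RNAs Neat1, Malat1 and Tug1. They were picked by name, and their probes were found through the RefSeq accession that the array files give for each probe. Of the 9 genes, 7 had a matched probe, with 8 probes in all among the 56605 probes of the array. No probe was matched to Gas5 or Malat1, which have no signal values here.

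Signals were measured in TM3 cells, a mouse line derived from testicular Leydig cells, the cells that make testosterone. One group of 3 samples received no 4-nitrophenol (named nPNP or PNP in the labels, dose 0 µM), and the other group of 3 received 10 µM for 24 h. The labels do not say whether control cells received a solvent. Each sample was total RNA on its own 1-colour Agilent array, and all 6 arrays lay on 1 slide. The labels do not say whether the 3 samples of a group were separate cultures, and p-values here may therefore rest on technical spread.

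A snoRNA host gene is transcribed and spliced, and its snoRNAs are cut out of the introns. The snoRNAs then guide the chemical modification and processing of ribosomal RNA, with box C/D snoRNAs directing methylation and box H/ACA snoRNAs directing pseudouridylation. The spliced host RNA is often short-lived, because ribosomes that read it meet an early stop and trigger nonsense-mediated decay. Gas5 became known as a transcript that builds up in growth-arrested cells. Neat1 is the scaffold of paraspeckles, Malat1 lies in nuclear speckles where splicing factors collect, and Tug1 is a widely expressed RNA with nuclear and cytoplasmic forms.

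Many host transcripts begin with a stretch of C and T, called a terminal oligopyrimidine tract, which they share with the mRNAs of ribosomal proteins. The start sites of the measured members are shown because this tract, and the TATA letters before it, are features that the choice of genes by name did not use. The RefSeq promoter table, build GRCm38.p6, held windows for Snhg1, Snhg3, Snhg8, Snhg12 and Tug1 among the measured genes, and did not list Snhg6 or Neat1. Each line runs 5′ to 3′ on the strand of the gene, from 40 bases before the annotated start to 20 bases after it. Capitals mark TATA beginning between -40 and -20, and any run of at least 5 letters that are each C or T beginning between -5 and 5.
Snhg1: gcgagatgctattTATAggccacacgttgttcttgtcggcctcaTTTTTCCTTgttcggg
Snhg3: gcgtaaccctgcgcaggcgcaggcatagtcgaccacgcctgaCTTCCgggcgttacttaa
Snhg8: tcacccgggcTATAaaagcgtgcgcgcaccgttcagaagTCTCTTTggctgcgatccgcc
Snhg12: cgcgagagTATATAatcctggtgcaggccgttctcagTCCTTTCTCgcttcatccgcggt
Tug1: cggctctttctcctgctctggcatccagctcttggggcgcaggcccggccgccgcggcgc

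These windows lie at chr19:8723447-8723506 (Snhg1, + strand), chr4:132353667-132353726 (Snhg3, - strand), chr3:123508317-123508376 (Snhg8, - strand), chr4:132308638-132308697 (Snhg12, + strand) and chr11:3648795-3648854 (Tug1, - strand). All 4 windows of measured hosts held a run of C or T within the searched range, of 9 letters in Snhg1 and Snhg12, 7 in Snhg8 and 5 in Snhg3. Among the members without a matched probe, Gas5 had a window with both the run and TATA and another with neither. The Malat1 window had neither. Among the measured hosts, the run spanned the annotated start in Snhg8 (from -1) and Snhg12 (from -3). It began after the start in Snhg1 (at 5, the edge of the range) and Snhg3 (at 3). TATA stood at -27 in Snhg1, -30 in Snhg8 and -32 in Snhg12, and neither feature was in the Tug1 window. Over all 32851 windows of the table, 20.3% held such a run, 5.81% held TATA and 1.28% held both. TATA reads the same on both strands, and the run was searched on the strand of the gene alone. The search ranges were set after these sequences had been seen, and a match is a description of letters, not a site in use.

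All 8 member probes were well above background on all 6 arrays, by the mark that the scanner software gives each spot. Signals are given below as scaled log2 signal, the log2 of the processed signal minus the 75th percentile of its array, so that a step of 1 is a doubling. They are comparable between arrays for a probe, but not between probes. The scanner software also marked 20 of the 48 member spots (41.7%) as non-uniform in their pixels, against 17.1% of all spots that were above background on every array. Marks were commoner on brighter spots, with 0.164% marked in the dimmest of 10 equal groups of probes and 38.8% in the brightest. Per array, the share of all spots marked ran from 6.53% to 9.07% in controls and was higher on each PNP array, up to 13.2%. No spot was saturated.

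**Figure D1:**
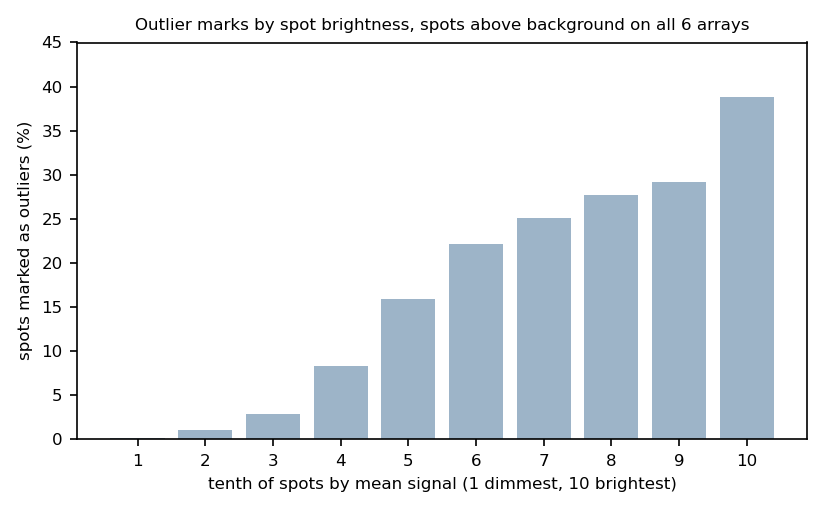
Percent of spots marked as outliers by the scanner software (vertical axis, pooled over the 6 arrays), for spots well above background on every array, in 10 equal groups by mean signal (horizontal axis). The share rises from 0.164% in the dimmest group to 38.8% in the brightest.

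Marked spots were left out of the main test, which needed at least 2 values in each group. This left 4 member genes: Snhg6, Snhg8, Snhg12 and Neat1. Snhg1 was marked on all 6 arrays, Snhg3 on 4 and Tug1 on 3, so these are described with their marked spots kept. In the main test limma called 0 of the 4 members between PNP and control at an adjusted p below 0.05, among 0% of all 13138 genes tested. At an unadjusted p below 0.05 there were 0 of 4 members and 856 genes (6.52%). With each of 27222 tested probes fitted on its own, 0 of 4 member probes passed the adjusted level (0% of all probes) or the unadjusted one (6.99%). With the marked spots kept, 0 of the 7 measured members passed at either level, where 0% of 15046 genes passed the adjusted level and 5.93% the unadjusted one. The control and PNP values overlapped for all 7 members. They did not overlap for 13.4% of genes with marked spots left out and for 11% with them kept.

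**Figure D2:**
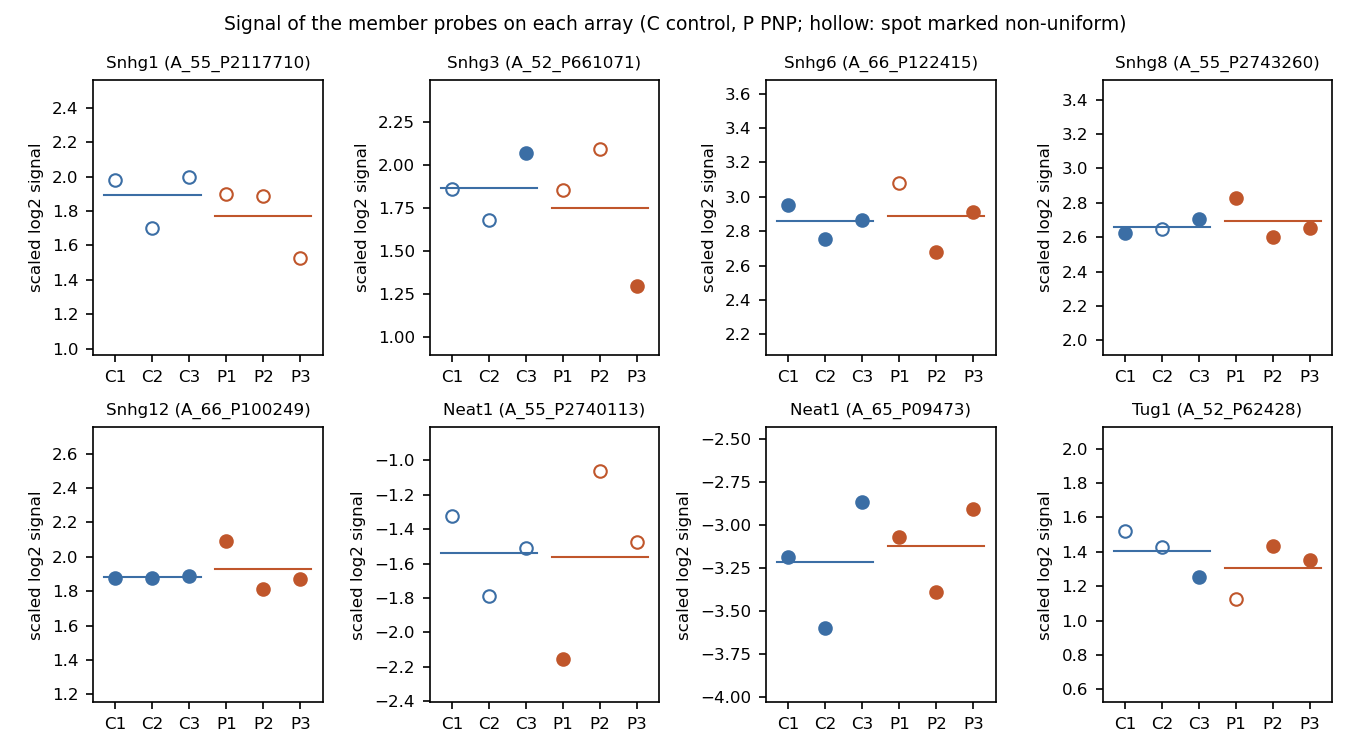
Scaled log2 signal (vertical axis, each panel spanning the same range) of the 8 member probes on the 3 control (C1 to C3, blue) and 3 PNP (P1 to P3, orange) arrays. Lines are group means over all 3 arrays and hollow points are spots marked as non-uniform. Control and PNP points overlap in every panel, and Snhg1 has only hollow points.

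Among the snoRNA hosts, Snhg12 carries mostly H/ACA snoRNAs in its introns and gave the tightest control values. Its scaled log2 signals were 1.88, 1.88 and 1.89 on control replicates 1 to 3 and 2.09, 1.81 and 1.87 on PNP replicates 1 to 3. PNP replicate 1 stood above every control and the other PNP arrays stood below them. The group means were 1.88 ± 0.0054 (SD, n = 3) and 1.93 ± 0.15 (SD, n = 3), a difference of 0.05 (SE 0.10, 95% interval -0.19 to 0.28, limma adjusted p = 0.963). Before any scaling, the spot medians of this probe ran from 18299 to 21762 intensity units over a local background of 55 to 75. No mark fell on it.

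Snhg8, the host of an H/ACA snoRNA, had signals of 2.63, 2.65 and 2.71 on control replicates 1 to 3 and 2.83, 2.60 and 2.65 on PNP replicates 1 to 3. Here too PNP replicate 1 was the highest array and PNP replicate 2 the lowest. The spot on control replicate 2 was marked, so the test rested on 2 control values, with means of 2.67 ± 0.06 (SD, n = 2) and 2.69 ± 0.12 (SD, n = 3). The difference was 0.03 (SE 0.12, 95% interval -0.25 to 0.30, limma adjusted p = 0.980), and it was -0.06 with slide column as a block. Of all member probes this one varied least, by 1.17-fold from its lowest to its highest array.

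Snhg6, which hosts a box C/D snoRNA, had signals of 2.95, 2.76 and 2.86 on control replicates 1 to 3 and 3.08, 2.68 and 2.91 on PNP replicates 1 to 3. The value of PNP replicate 1 was again the highest, and it was marked. Without it the PNP mean was 2.80 ± 0.17 (SD, n = 2) against 2.86 ± 0.10 (SD, n = 3), a difference of -0.06 (SE 0.12, 95% interval -0.36 to 0.23, limma adjusted p = 0.961). With the marked spot kept the difference was 0.03 (SE 0.13). With it kept the difference was -0.0702 after quantile normalization and -0.0281 when scaled on array medians. The sign thus depended on this spot and on the scaling.

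The highest and the lowest array were the same in these 3 hosts, while the order of the arrays between them differed. PNP replicate 1 gave the highest and PNP replicate 2 the lowest signal in each. PNP replicate 1 was the dimmest array, with 59.9% of spots well above background against 61.8% to 62.6% on the others, and the part of this in the order was not tested. It was the highest array for 33.0% of all genes. After quantile normalization PNP replicate 1 was the highest for 25.5% of all genes and for 1 of the 5 measured member hosts, against 3 of 5 on the main scale. PNP replicate 2 was the lowest for 3 of the 5 under both scalings (20.7% and 25.1% of all genes).

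Snhg1, a host of several box C/D snoRNAs, had signals of 1.98, 1.70 and 2.00 on control replicates 1 to 3 and 1.90, 1.89 and 1.53 on PNP replicates 1 to 3. Its lowest arrays were PNP replicate 3 and control replicate 2, from opposite groups. With all 6 spots marked, the difference was -0.12 (SE 0.14, 95% interval -0.44 to 0.19, limma adjusted p = 0.938). Slide row and column were read from the last digits of the deposited name of each scan. By these, control replicate 2 and PNP replicates 1 and 3 lay in even columns of the slide, and the other arrays in odd columns. Row 1 of the slide held all controls and PNP replicate 1, and row 2 held PNP replicates 2 and 3 alone. Row thus went partly with treatment, and it was not used as a block. The difference was -0.0443 (SE 0.13) with slide column as a block, and the even minus odd column difference was -0.23 (SE 0.13, limma adjusted p = 0.531).

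Snhg3, the host of H/ACA snoRNAs that act in the cleavage of the ribosomal RNA precursor, varied more. Its signals were 1.86, 1.68 and 2.07 on control replicates 1 to 3 and 1.85, 2.09 and 1.30 on PNP replicates 1 to 3, a span of 1.74-fold. The highest and the lowest array were both PNP arrays. The only unmarked spots were control replicate 3 (2.07) and PNP replicate 3 (1.30), 1 for each group and so without a test. With all spots kept the difference was -0.12 (SE 0.20, 95% interval -0.58 to 0.34, limma adjusted p = 0.942).

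Slide column moved with the Snhg3 values too. The even arrays had Snhg3 signals from 1.30 to 1.85 and the odd arrays from 1.86 to 2.09, so columns did not overlap, as held for 17.3% of all genes with marked spots kept. The even minus odd difference was -0.40 (SE 0.16, limma adjusted p = 0.397), a size not called, where 0.14% of genes were called by column. With column as a block the Snhg3 difference between PNP and control was 0.01 (SE 0.16), against -0.12 without it. Within odd columns, PNP replicate 2 (2.09) stood above control replicates 1 and 3 (1.86 and 2.07). Within even columns, control replicate 2 (1.68) lay between PNP replicates 1 and 3 (1.85 and 1.30).

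Neat1, the paraspeckle scaffold, was read by 2 probes that cite the same transcript. Probe A_65_P09473, free of marks, gave -3.19, -3.60 and -2.86 on control replicates 1 to 3 and -3.07, -3.39 and -2.91 on PNP replicates 1 to 3. Its lowest and its highest array were both controls. The means were -3.22 ± 0.37 (SD, n = 3) and -3.12 ± 0.25 (SD, n = 3), a difference of 0.09 (SE 0.20, 95% interval -0.36 to 0.55, limma adjusted p = 0.961). The spot medians lay from 491 to 864 intensity units over a background of 65 to 132.5, the least signal over background among the members.

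The other Neat1 probe, A_55_P2740113, was marked on 5 of 6 arrays. Its signals were -1.32, -1.79 and -1.51 on control replicates 1 to 3 and -2.16, -1.06 and -1.47 on PNP replicates 1 to 3. The highest and the lowest array were PNP replicates 2 and 1, and the span of 2.14-fold was the widest of any member probe. PNP replicate 1, the only unmarked spot, was the lowest array by this probe but above both control replicates 1 and 2 by the other, so the probes ordered the arrays differently. With marked spots kept the difference by this probe was -0.02 (SE 0.26, 95% interval -0.61 to 0.56, limma adjusted p = 0.992). Its even minus odd column difference was -0.56 (SE 0.19, limma adjusted p = 0.303), and with column as a block the difference between PNP and control was 0.16 (SE 0.19).

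Tug1 had signals of 1.52, 1.43 and 1.25 on control replicates 1 to 3 and 1.13, 1.44 and 1.35 on PNP replicates 1 to 3. PNP replicate 1 was the lowest array, while PNP replicates 2 and 3 lay within the range of the controls. With the 3 marked spots kept the difference was -0.10 (SE 0.12, 95% interval -0.37 to 0.18, limma adjusted p = 0.940). The unmarked values were 1.25 on control replicate 3 and 1.44 and 1.35 on PNP replicates 2 and 3, which points the other way from the difference over all spots. With all spots kept and column as a block the difference was -0.0707 (SE 0.13). In bulk RNA, fewer cells carrying a transcript and less of it per cell cannot be told apart, for any of these genes.

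**Figure D3:**
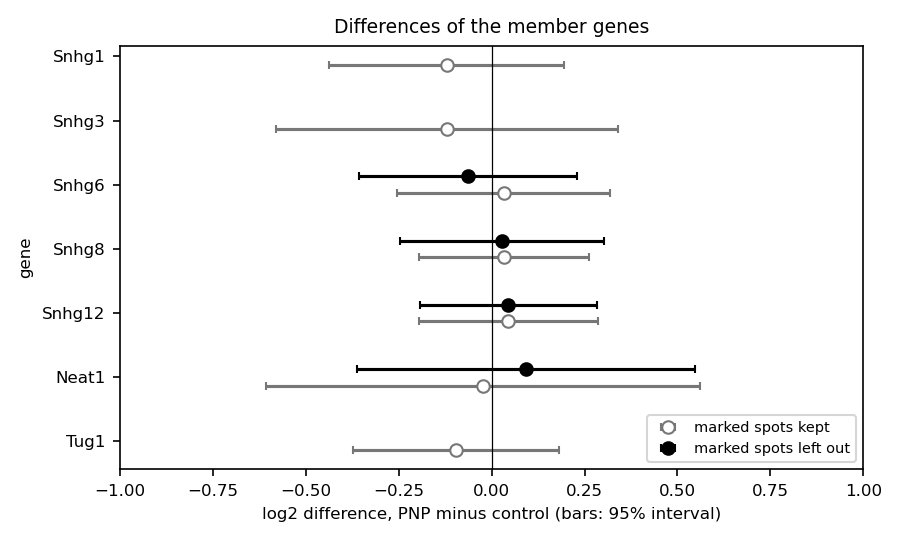
Difference in scaled log2 signal, PNP minus control (horizontal axis), with 95% intervals, for the 7 measured member genes. Filled points leave marked spots out and hollow points keep them, and for Neat1 the hollow point is the other probe. Every interval spans 0, and the widest are those of Neat1 and Snhg3.

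The precision of these differences was set by the 6 arrays. For all 4 members tested with marked spots left out, the 95% interval lay inside a 1.5-fold change up or down, as for 84.4% of all genes. With marked spots kept it lay inside a 2-fold change for 7 of 7 members (98.2% of all genes). It lay inside a 1.5-fold change for 6 of 7 (85.7% of all genes), the exception being Neat1 by its other probe. The median difference of the 4 tested members was 0.04, beside 0.04 over all genes. Over the 7 members with marked spots kept it was -0.02, beside 0.03 over all genes.

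The 16 other snoRNA hosts listed beside the members had 11 genes with a matched probe, of which 8 were tested with marked spots left out. Of these 8, 0 passed in either direction, 7 had a difference above 0 (63% of all genes did) and the median was 0.04, beside 0.04 over all genes (-0.03 beside -0.02 when scaled on array medians). The smallest p-values belonged to Snhg10, with 0.43, 0.64 and 0.52 in controls and 0.76, 0.58 and 0.80 with PNP (difference 0.18, SE 0.11, limma adjusted p = 0.866), and to Snhg5. The Snhg5 values were 2.37 and 2.19 on control replicates 1 and 2 and 2.62 and 2.32 on PNP replicates 1 and 3 (difference 0.19, SE 0.15, limma adjusted p = 0.917). Both sets of values overlapped between the groups. With marked spots kept, Snhg4 had the largest difference of the 11, with -1.79, -1.19 and -1.19 in controls and -2.21, -1.61 and -2.00 with PNP (difference -0.55, SE 0.20, limma adjusted p = 0.836). Snhg4 was named after its values were seen, and its control replicate 1 lay below PNP replicate 2.

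**Figure D4:**
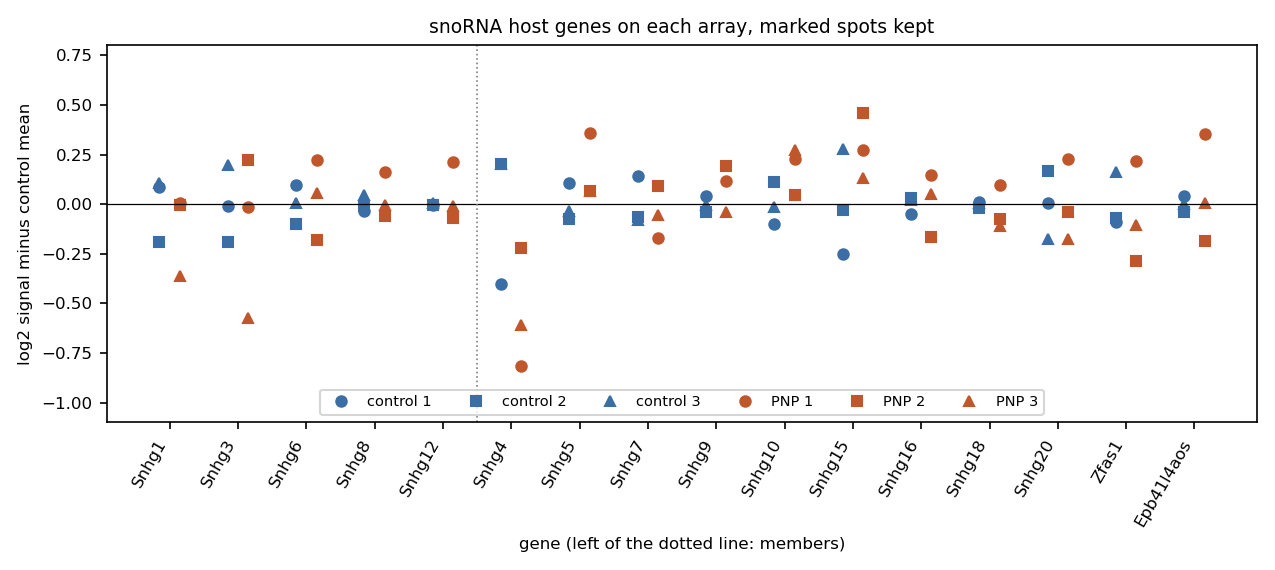
Log2 signal minus the mean of the 3 controls (vertical axis) for the 5 measured member hosts and 11 other snoRNA hosts, with marked spots kept. Each point is 1 array, blue for control and orange for PNP. Most points lie within 0.50 of the control mean, and the lowest are Snhg4 and Snhg3 on PNP arrays.

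The proteins that work with these RNAs were read in 4 lists. Their medians all lay between -0.06 and -0.03 when scaled on array medians, beside -0.0182 over all genes. The list medians that follow are on the main scale, where the median over all genes was 0.0426. The snoRNP proteins and assembly factors, which build the particle around each snoRNA, had 0 of 13 tested members pass and a median of 0.02. Shq1, a chaperone of the pseudouridine synthase dyskerin, differed by -0.27 (SE 0.13) and Ruvbl2, an ATPase of snoRNP assembly, by 0.25 (SE 0.16), with limma adjusted p-values of 0.791 and 0.874. The Shq1 value of PNP replicate 3 was missing, and its groups did not overlap, as held for 13.4% of all genes. Those of Ruvbl2 overlapped. The nonsense-mediated decay factors, which degrade spliced host RNA, had 0 of 10 pass and a median of -0.0042. In that list Smg1, the kinase that starts decay, stood at -0.14 (SE 0.09) and Smg6, its endonuclease, at -0.08 (SE 0.10), with limma adjusted p-values of 0.878 and 0.950. The groups did not overlap for Smg1, with PNP lower, and overlapped for Smg6.

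The paraspeckle proteins, partners of Neat1, had 0 of 12 pass and a median of 0.03. Dazap1, an RNA-binding protein, had -0.73, -0.90 and -0.81 on control replicates 1 to 3 and -0.56, -0.47 and -0.47 on PNP replicates 1 to 3. Its groups did not overlap, as held for 13.4% of all genes. Its difference of 0.31 (SE 0.09) had a limma adjusted p of 0.740 and an unadjusted p of 0.0104. The unadjusted p was below 0.05 for 6.52% of all genes, but Dazap1 was named for the smallest p of its list. Ewsr1, another RNA-binding protein, stood at -0.17 (SE 0.11, limma adjusted p = 0.876), and its groups did not overlap either, with PNP lower. The nuclear speckle and splicing proteins, the surroundings of Malat1, had 0 of 14 pass and a median of 0.03. There Mettl16, which binds the triple helix at the 3′ end of Malat1, stood at -0.22 (SE 0.11), with PNP replicate 2 missing, and the splicing factor Srsf1 at -0.18 (SE 0.09), with limma adjusted p-values of 0.811 and 0.830. For both genes the PNP values lay below the controls without overlap.

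Of 20 other nuclear or regulatory noncoding RNAs, 17 had a matched probe and 12 were tested, and 0 passed. Their median was 0.15 beside 0.04 over all genes, and 10 of 12 had a difference above 0, as did 63% of all genes. The median was 0.0828 beside -0.0182 when scaled on array medians, and 0.0879 beside 0.0348 with marked spots kept, over 13 genes. Miat, an RNA first tied to heart disease, had -4.24, -4.35 and -4.58 on control replicates 1 to 3 and -3.91, -4.19 and -4.11 on PNP replicates 1 to 3. Its groups did not overlap, as held for 13.4% of all genes. Miat was dim, with control values in the range of the dimmest of the 10 equal groups by mean signal (-5.31 to -4.17). The Miat difference was 0.32 (SE 0.12, limma unadjusted p = 0.0328, limma adjusted p = 0.740). Such an unadjusted p, below 0.05, was reached by 6.52% of all genes, but Miat was named for the smallest p of this list. Mir22hg, the host of a microRNA, differed by 0.23 (SE 0.11, limma adjusted p = 0.795). Xist, the RNA of the inactive X chromosome, was well above background on 0 arrays.

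As a check on the label, Star and Nr5a1 of the Leydig markers were well above background on all 6 arrays. Cyp11a1 and Lhcgr were so on none, Hsd3b1 on at most 1 and Cyp17a1 on 5, and Insl3 had no matched probe. All 4 peritubular myoid markers and the macrophage markers Csf1r, Cd68 and Lyz2 were above background on all 6 arrays, while Adgre1 and Ptprc were so on none. The Sertoli markers Sox9, Dmrt1 and Rhox5 and the germ cell markers Ddx4 and Prm2 were also above background on all 6 arrays. Amh and Prm1 were so on none, the germ cell markers Dazl on at most 1 and Tnp1 on 5, and each of the 4 endothelial markers on at most 1.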

How the data were processed

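Intensity values are those of the deposited scanner files, 1 per array, made with Agilent Feature Extraction 11.5.1.1 per the file headers (10.7 per the submitters' processing notes). Per the file headers they are red-channel columns, while the labels name the dye Cy3. The authors' deposited value table holds log2 values, with the same median of 8.27 in every column. Its columns correlated best with their own arrays (r from 0.9997 to 1.0000), in the direction of the scanner signal and uncentred. No source used here gives its normalization.

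R 4.3.3 and limma 3.58.1 (lmFit, eBayes, two-sided, no covariate, Benjamini-Hochberg over 13138 genes) were run on the scaled log2 signal. Control spots were left out, as were spots that the scanner marked as outliers (non-uniform, population). A probe was tested if well above background on all 3 arrays of a group. A gene was its brightest tested probe, named through RefSeq accessions (33767 of 56605 probes). The scanner files used have no mean signal column, so normexp (offset 50) ran on spot medians. The fit was tested on simulated data. The members and lists were chosen with earlier results of these data known. Genes named beside the 9 members are the 2 of smallest p in each list, unless stated.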

Additional observations from a re-analysis of the deposited data

How the results depend on the processing

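Across 20 alternatives, 0 member genes were called, and the smallest adjusted p of a tested member was 0.618. The median difference of the tested members (0.04) was -0.0702 with marked spots kept and quantile normalization and -0.0833 with them kept and median scaling, both chosen after seeing the data and both over 7 genes. Over the same 4 genes it was -0.0230 with column as a block, -0.0192 on the median scale, -0.0066 with quantile normalization, -0.0043 in the authors' values and 0.0847 with normexp. With marked spots kept alone it was -0.0231 over 7 genes. Over the arrays left out in turn it ran from -0.0377 to 0.0883. Over all genes the count of 0 calls became 1 (Gm27166) with slide column as a block, with an intensity trend in the prior, and with marked spots kept and column as a block. Over probes it became 2, 3 and 1. Leaving out 1 array gave 0 to 1 gene (Gm27166 without control replicate 2, 1600027J07Rik without PNP replicate 2) and 0 to 1 probe. Genes with an unadjusted p below 0.05 (856) numbered 344 without control replicate 3 and 1745 without PNP replicate 2.

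Signs of members turned, none with a call. Neat1 (0.09) was -0.0231 with marked spots kept, and -0.0320 and -0.0833 when these were also quantile normalized or median scaled, and ran from -0.10 without control replicate 2 to 0.27 without control replicate 3. With normexp Neat1 was 0.25, Snhg12 0.14 and Snhg6 -0.0086. Snhg12 (0.05) was -0.0150 on the median scale, with or without marked spots, and ran from -0.0384 without PNP replicate 1 to 0.10 over the arrays left out in turn. Snhg6 (-0.06) was 0.0321 with its marked spot kept and 0.0040 when column was then a block, and ran from -0.18 to 0.0553 without PNP replicate 2. With the spot kept Snhg6 was -0.0702 after quantile normalization and -0.0281 after median scaling. Snhg8 (0.03) was -0.0234 on the median scale, -0.0337 with quantile normalization, -0.0296 in the authors' values and -0.0633 with column as a block. With its marked spot kept it was -0.0572 after quantile normalization and -0.0265 after median scaling. It ran from -0.0370 without PNP replicate 1 to 0.0745. On the median scale the median over all genes was -0.0182, against 0.0426 on the main scale. Relative to the median over all genes, Neat1 was 0.0510 on the main scale and 0.0516 on the median scale, and Snhg12 0.0026 and 0.0032. Snhg8 was -0.0140 and -0.0052, and Snhg6 -0.106 and -0.133. The cause of these turns was not tested.

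Same-numbered replicates of the groups did not deviate together (r = -0.31, -0.22 and -0.03 over 11110 genes). Each such pair joined an even and an odd column of the slide, so these r cannot tell whether the numbers pair the samples. With the replicate block 0 genes (594 at an unadjusted p below 0.05) and 0 members were called, and the member median was 0.06. Signal over background limits Neat1 most, and 3 members rest on marked spots.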

Other observations

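Snhg12 and Neat1 were the members with an unmarked value on all 6 arrays, and the genes whose pattern over the arrays was most like theirs were looked up among 11108 others. For Snhg12 the most alike was Cops9, a subunit of the COP9 signalosome (Pearson r = 0.995 over 6 arrays). Cops9 was lowest on PNP replicate 2 (2.73) and highest on PNP replicate 1 (3.24), as was Snhg12. For Neat1 the most alike were Vps26b, a retromer subunit (r = 0.988), and Mtr, methionine synthase (r = 0.974). An r above 0.9 was reached by 362 genes for Snhg12 and by 51 for Neat1, and with 6 arrays that share 1 slide these are descriptions alone.

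Over all 16 measured snoRNA hosts with marked spots kept, PNP replicate 1 was the highest array for 9, beside 33.0% of all genes. It was the highest for 11 of 16 after scaling on array medians (37.0% of all genes) and for 4 of 16 after quantile normalization (25.5%). These counts include the 5 member hosts. Of the 11 other hosts alone, it was the highest for 6 on the main scale, 8 after median scaling and 3 after quantile normalization. The split was looked at after the member values had been seen.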
